A study of Mus musculus with 12 samples.

Results

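The 3 nuclear RNA polymerases and the factors that place Pol III on its genes were followed in NIH3T3 cells after knockdown of UBF, an architectural protein that acts with Pol I on the ribosomal RNA genes. Members were the genes whose symbol begins with Polr1, Polr2 or Polr3 and a letter, the Pol I subunit genes Twistnb, Cd3eap and Znrd1, and the Pol III factor genes Gtf3a, Gtf3c1 to Gtf3c6, Brf1, Brf2, Bdp1 and Maf1. The symbols chosen in this way numbered 41, of which 40 were measured on a probe set of their own among 19938 genes in all. The remaining symbol, Gtf3c2, lay only on probe sets annotated with more than 1 gene and was not analysed here. Of the 40 genes, 6 encode subunits of Pol I alone, 2 subunits shared by Pol I and Pol III, 5 subunits common to all, 8 subunits of Pol II or, for Polr2m, a protein bound to it, and 9 subunits of Pol III or their paralogs. Another 9 encode the Pol III factors TFIIIA (1 gene), TFIIIC (5) and TFIIIB (3), and the last is Maf1.

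Pol I makes the precursor of the large ribosomal RNAs, Pol II makes messenger RNAs, and Pol III makes tRNAs, the small ribosomal RNA of the large subunit and other short RNAs. Each enzyme has its own largest and second-largest subunits, which form the active site, while Pol I and Pol III share a pair of assembly subunits and all the enzymes share a set of small subunits. TFIIIA and TFIIIC bind Pol III genes and bring TFIIIB, which recruits Pol III, and Maf1 represses Pol III when cells are starved or stressed. Every protein discussed here is made from a messenger RNA transcribed by Pol II, and it was the level of that messenger RNA that the arrays measured.

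NIH3T3 is an immortalised mouse fibroblast line. Cells were transfected with the reagent DharmaFECT 2 and an siRNA at 40 nM, and total RNA was taken after 48 h. The 4 groups were oligo 1 and oligo 2, which are independent siRNAs against UBF, sirEGFP, an siRNA control named for EGFP, and Mock, which received the reagent without siRNA. Each group had 3 Affymetrix arrays, described in the design as biological replicate experiments, so the p-values reflect the spread between these arrays and their number limits the precision.

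Ubtf, which encodes UBF, stood at 7.998, 7.74 and 7.64 on the log2 scale with oligo 1, 7.90, 7.83 and 7.49 with oligo 2, 8.68, 8.31 and 8.04 with sirEGFP, and 8.54, 8.63 and 8.41 in Mock. Its change with both oligos was -0.58 ± 0.14 (SE) against sirEGFP (limma adjusted p = 0.0526) and -0.76 against Mock (adjusted p = 0.00968). The call against Mock was lost without Mock array 1 (adjusted p = 0.059) or array 2 (0.0692). Array medians lay between 5.38 and 5.54. The 8 fibroblast markers averaged 9.13 to 9.72 per array, and the summary level of epithelial, macrophage, endothelial and skeletal muscle markers lay between 4.36 and 6.02 (4 to 6 genes each). Single markers moved with the siRNAs: Csf1r, of the macrophage list, was called higher with oligo 1 against sirEGFP (0.83, adjusted p = 0.00874) and against oligo 2 (0.80, 0.00807), and Pdgfrb, of the fibroblast list, was called higher with oligo 2 against sirEGFP (1.75, 0.0126). Between the oligos the markers called also included Lyz2, of the macrophage list (1.29 higher with oligo 1, adjusted p = 0.00145), Thy1 (0.67, 0.0305), Cdh5, of the endothelial list (-0.96, 0.0176), and Pdgfrb (-1.33, 0.0418). Of the 6 macrophage markers, 5 were above 0 between the oligos, while Cd68 lay the other way, at -0.58, and was not called. With oligo 2 against sirEGFP, Cd68 was at 1.00 (adjusted p = 0.0648) and Lyz2 at -0.61, neither called. The markers' part in the members' results was not tested. The direction in which arrays of a group differed most from each other, the first principal component of the deviations from the group means, is here called the within-group axis. Oligo 1 arrays 1 and 2 and sirEGFP array 1 were its outermost arrays, with scores of 0.50, -0.53 and 0.44, while the other 9 lay between -0.31 and 0.28. Each call of a gene below is also given without these 3 outer arrays, a setting chosen after seeing the data that leaves oligo 1 with 1 array, assumed to vary like the others.

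Few polymerase messenger RNAs passed the test after knockdown of UBF. With oligo 1 against sirEGFP, 2 of the 40 members passed limma's test at an adjusted p under 0.05, and both fell: Polr2h, a subunit common to all 3 enzymes, and Polr3g, a Pol III subunit. In that comparison 2.47% of all genes passed, and 1.43% passed as lower. With oligo 2 against sirEGFP no member passed, where 2.26% of all genes did. With the replicate number as a block in the fit of all 12 arrays, oligo 2 against sirEGFP gave 773 genes called, against 451 without the block, and again 0 members. Deviations from the group means of same-numbered arrays of oligo 2 and sirEGFP correlated at 0.182 or more. For other pairs of groups in that fit some correlations were lower, down to -0.237. Whether the replicate numbers mark pairs of arrays was not tested.

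With both oligos combined against sirEGFP, Polr2h and Polr3g fell, where 1.93% of all genes were called and 0.722% were called lower. Against Mock, Polr2h and Polr2d fell with both oligos, where 3.3% of all genes were called and 1.22% were called lower. Between the oligos, Polr3c was higher with oligo 1 (1.37% of all genes) and Znrd1 lower (2.3%), where 3.67% were called in all. With counts of 0 to 2 among 40 members, no share was read as apart from the background. The comparisons with sirEGFP share its 3 arrays, so they are not separate observations of the same gene.

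An unadjusted p under 0.05 was reached by 8 members with oligo 1 (1 higher, 7 lower) and 8 with oligo 2 (1 higher, 7 lower). It was reached by 9 with both oligos against sirEGFP (1 higher, 8 lower), 8 with both against Mock (4 and 4) and 4 between the oligos (1 and 3). The shares of all genes in these comparisons were 13.4%, 12.9%, 13.2%, 14.5% and 14.4%. Of the 19938 genes, 1478 were higher and 1185 lower with oligo 1, and 1493 and 1073 with oligo 2. With both oligos against sirEGFP they were 1548 and 1092, against Mock 1827 and 1068, and between the oligos 1346 and 1534. Against sirEGFP the members so reached were thus mostly lower, where among all genes more were higher. The arrays of the groups did not overlap for 9 members with oligo 1 against sirEGFP, all lower with oligo 1, where 15.5% of all genes were separated in either direction. The same held for 8 members with oligo 2 (5 lower, 3 higher), where it held for 18.5% of all genes, and for 6 members between the oligos, where it held for 18.3%. With both oligos against Mock 5 members were separated (6.42% of all genes), and with sirEGFP against Mock also 5 (10.7%). The shares of all genes separated were not split by direction, so the 9 members lower with oligo 1 have no lower share beside them.

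The median change of the 40 members was -0.0032 with oligo 1 and 0.049 with oligo 2 against sirEGFP, beside 0.022 and -0.0077 over all genes. Of the 40, 19 lay above 0 and 21 below with oligo 1, and 22 above and 18 below with oligo 2. Between sirEGFP and Mock no gene passed limma's test (0% of all genes), and 7 members reached an unadjusted p under 0.05, where 6.25% of all genes did. The 7 were Polr2b, Polr3b, Polr3g and Bdp1, higher with sirEGFP, and Polr2f, Gtf3a and Brf1, lower with sirEGFP. Against Mock the members' median with both oligos was -0.062, and that of all genes was 0.027.

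**Figure D1:**
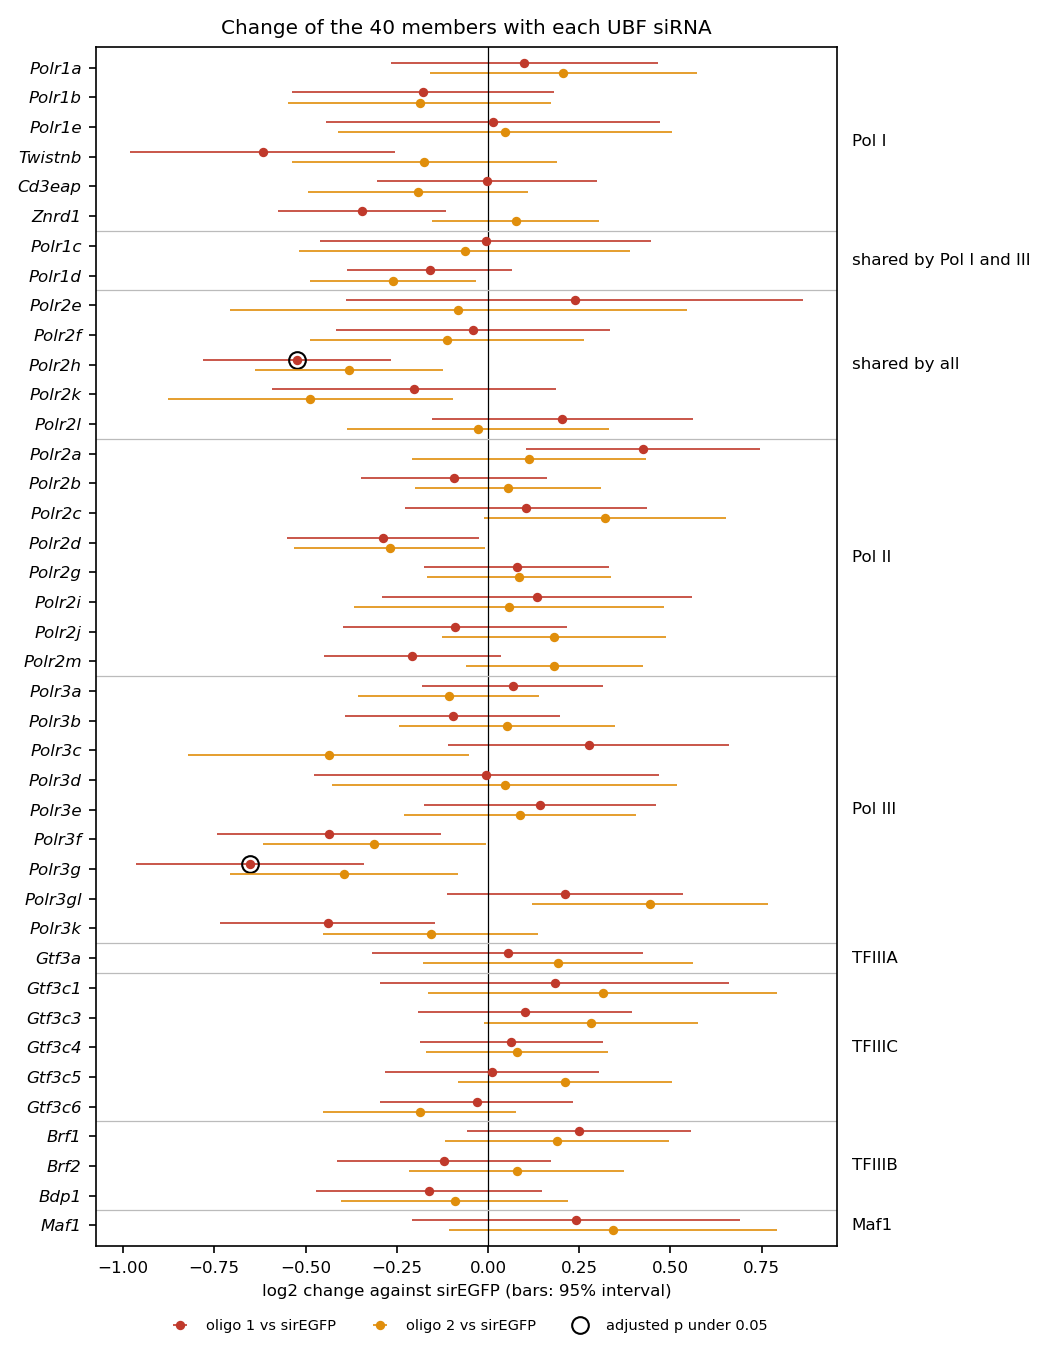
Change of each of the 40 members against sirEGFP on the log2 scale (points) with its 95% interval (bars), for oligo 1 and oligo 2, grouped by complex from Pol I at the top to Maf1 at the bottom. Rings mark the calls, Polr2h and Polr3g with oligo 1, and most other intervals span 0.

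Polr2h encodes a small subunit found in all the nuclear polymerases. Its log2 level was 10.02, 10.33 and 10.27 with oligo 1, 10.45, 10.42 and 10.17 with oligo 2, 10.69, 10.78 and 10.71 with sirEGFP, and 10.87, 10.83 and 10.73 in Mock. All 6 knockdown arrays were lower than all 6 control arrays, as for 1 other member, Polr1d. Of all genes, 2.12% were so separated in either direction, and the share lower alone was not computed. Polr2h fell by 0.52 on the log2 scale with oligo 1 (SE 0.12, limma adjusted p = 0.0325), so that the level dropped by 30.5%. The change with oligo 2 was -0.38 ± 0.12 and was not called (adjusted p = 0.136), and the oligos differed by -0.14 (95% interval -0.40 to 0.11). With both oligos together it fell by 0.45 against sirEGFP (adjusted p = 0.0399) and by 0.53 against Mock (adjusted p = 0.0122).

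The size of the Polr2h change varied little with the arrays used, while the call did not hold throughout. Leaving out any single array except oligo 1 array 2 ended the call of both oligos against sirEGFP, with adjusted p-values of 0.0527 (without Mock array 3) to 0.211 (without sirEGFP array 2). With oligo 1 it was lost without oligo 1 array 1 (adjusted p = 0.14) or array 3 (0.0827) and without sirEGFP array 1 (0.052), 2 (0.143) or 3 (0.106). Against Mock it was lost only without Mock array 1 (adjusted p = 0.082) or Mock array 2 (0.0669). With the 3 outer arrays left out, the changes were -0.47 with oligo 1 (adjusted p = 0.237), -0.44 with both oligos against sirEGFP (0.086) and -0.50 against Mock (0.0417). A second, dimmer probe set for Polr2h also had all 6 knockdown arrays, at 7.37 to 7.75, below the 6 controls, at 7.81 to 8.13. Its change with both oligos was -0.29 ± 0.11 against sirEGFP, which was not called (adjusted p = 0.22), and -0.47 against Mock, which was (adjusted p = 0.0283).

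The sequence just before the start site is printed for Polr2h and for Polr3g, the members called against sirEGFP, and for Polr3gl, the paralog of Polr3g, whose changes lay on the other side of 0. The sequences are those of RefSeq, build GRCm38.p6, 150 bases ending at the base before the most upstream start given there. Polr2h lies on the plus strand at chr16:20717676-20717825, Polr3g on the minus strand at chr13:81711014-81711163 and Polr3gl on the minus strand at chr3:96594182-96594331. Capitals mark a CCAAT box (CCAAT, or ATTGG on the other strand) or an ETS motif (CCGGAAG, or CTTCCGG on the other strand).
Polr2h: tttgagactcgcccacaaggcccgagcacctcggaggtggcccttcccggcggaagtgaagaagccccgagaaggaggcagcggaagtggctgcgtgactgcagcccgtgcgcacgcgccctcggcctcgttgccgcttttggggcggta
Polr3g: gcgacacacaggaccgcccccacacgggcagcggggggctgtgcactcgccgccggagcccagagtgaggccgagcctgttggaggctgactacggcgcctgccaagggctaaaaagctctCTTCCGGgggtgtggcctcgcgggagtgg
Polr3gl: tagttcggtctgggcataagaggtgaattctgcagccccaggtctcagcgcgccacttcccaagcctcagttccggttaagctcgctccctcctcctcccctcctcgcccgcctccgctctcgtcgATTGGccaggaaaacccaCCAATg

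The stretches of Polr2h, Polr3g and Polr3gl were 68%, 70.7% and 61.3% G and C. Polr3g had an ETS motif near the start, Polr3gl had 2 CCAAT boxes, and Polr2h had no match in this stretch to these motifs, to an E-box (CACGTG) or to a TATA box (TATAAA). Over windows of 250 bases before to 50 after each start, 32 of the 40 members were matched to RefSeq by symbol. The ETS motif was in 12 of these 32 (37.5%), where 9.93% of 27025 genes held it, and the E-box in 6 (18.75%, against 8.09%). The 6 with an E-box included Polr2h and Polr3gl, where it lay outside the stretch printed. The CCAAT box was in 10 (31.25%, against 41.1%) and the TATA box in 3 (9.375%, against 15.7%). Both strands were searched, none of the motifs is contained in another, and a match describes the sequence alone. The shares beside the members are over all 27025 genes with a start listed, not over genes measured here or of like level.

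None of the other common subunits was called against sirEGFP. Polr2k, which encodes a small zinc-binding common subunit, stood at 7.89, 8.64 and 7.96 with oligo 1, 8.17, 7.71 and 7.77 with oligo 2, 8.23, 8.40 and 8.48 with sirEGFP, and 8.34, 8.08 and 8.11 in Mock. The oligo 2 arrays were below all sirEGFP arrays, while oligo 1 array 2 was the highest of the 12. Its change was -0.20 with oligo 1 (adjusted p = 0.741) and -0.49 with oligo 2 (0.237), compared with -0.52 and -0.38 for Polr2h. Without the 3 outer arrays, which include oligo 1 array 2, the Polr2k change was -0.48 with oligo 1 (adjusted p = 0.322), -0.56 with oligo 2 (0.0531) and -0.52 with both oligos (0.0821). Polr2e, Polr2f and Polr2l, the remaining common subunits, had changes of -0.11 to 0.24 with either oligo against sirEGFP, none called. Against Mock, all 5 common subunits had changes below 0 with both oligos, with a median of -0.50. Polr2h alone was called with no replicate block. Polr2e was at -0.54 (adjusted p = 0.351) and Polr2f at -0.50 (0.0981, and 0.0359 with the block). Between the controls, Polr2e was at -0.61 and Polr2f at -0.42 with sirEGFP against Mock (adjusted p = 0.802 and 0.777), so the arrays of sirEGFP lay near the knockdown arrays for these genes.

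Among the Pol III subunits, Polr3g had the change farthest below 0 with oligo 1 against sirEGFP. Polr3g and Polr3gl encode alternative versions of a subunit that, with the products of Polr3c and Polr3f, forms the part of Pol III used in initiation, and Polr3g is known for high levels in undifferentiated cells. Polr3g stood at 7.49, 7.67 and 7.85 with oligo 1, 8.04, 7.66 and 8.07 with oligo 2, 8.56, 8.22 and 8.18 with sirEGFP, and 7.92, 7.94 and 8.06 in Mock. All 6 knockdown arrays were below the 3 sirEGFP arrays, but those of oligo 2 overlapped the Mock arrays. Polr3g fell by 0.65 with oligo 1 (SE 0.15, adjusted p = 0.0288), so that the level dropped by 36.4%, and by 0.52 with both oligos (adjusted p = 0.0481) against sirEGFP. The change with oligo 2 was -0.39 ± 0.15 (adjusted p = 0.229).

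Against Mock, the Polr3g change with both oligos was -0.18 (95% interval -0.45 to 0.09, adjusted p = 0.625), and sirEGFP itself was at 0.34 against Mock (adjusted p = 0.781). Every sirEGFP array was above every Mock array for Polr3g, where 10.7% of all genes were separated in either direction. The oligo 1 arrays all lay below the Mock arrays, and oligo 1 alone was not tested against Mock. Leaving out any single array but oligo 1 array 2 ended the call of both oligos against sirEGFP, with adjusted p-values of 0.0581 (without oligo 1 array 3) to 0.152 (without sirEGFP array 2). The oligo 1 call was lost without oligo 1 array 1 (adjusted p = 0.113) and without sirEGFP array 1 (0.0782), 2 (0.0759) or 3 (0.0537). The changes without the 3 outer arrays were -0.35 with oligo 1 (adjusted p = 0.473) and -0.31 with both oligos (0.273).

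Polr3gl stood at 6.52, 6.71 and 6.55 with oligo 1, 7.15, 6.55 and 6.77 with oligo 2, 6.59, 6.28 and 6.27 with sirEGFP, and 6.71, 6.47 and 6.48 in Mock. The groups overlapped, and oligo 2 array 1 was the highest. Its change was 0.21 with oligo 1 (adjusted p = 0.637) and 0.44 with oligo 2 (0.176), and with both oligos it was 0.33 (95% interval 0.05 to 0.61, adjusted p = 0.275). The paralogs thus had changes of opposite sign against sirEGFP with each oligo, and the one for Polr3gl did not pass. Against Mock, the Polr3gl change with both oligos was 0.16 (95% interval -0.12 to 0.44, adjusted p = 0.706). For Polr3gl, sirEGFP itself was at -0.17 against Mock, on the other side of 0 from Polr3g.

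Polr3f, of the same subcomplex, stood at 7.74, 8.13 and 8.22 with oligo 1, 8.08, 8.14 and 8.25 with oligo 2, 8.42, 8.51 and 8.47 with sirEGFP, and 8.01, 8.15 and 8.45 in Mock. As for Polr3g, every knockdown array was below the sirEGFP arrays while Mock arrays reached down among them. The change with both oligos was -0.37 ± 0.12 against sirEGFP (adjusted p = 0.169) and -0.11 against Mock (0.801). Only 4 members had all 6 knockdown arrays below the 3 of sirEGFP, namely Polr1d, Polr2h, Polr3f and Polr3g, and none had them above, where 5.02% of all genes were separated in one direction or the other.

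Polr3c, the third gene of the subcomplex, differed between the siRNAs. It stood at 9.17, 8.81 and 9.10 with oligo 1, 8.62, 8.02 and 8.30 with oligo 2, 9.09, 8.71 and 8.45 with sirEGFP, and 8.59, 8.89 and 8.87 in Mock. The oligo 1 arrays were all above the oligo 2 arrays, with the controls spread between and across them. Oligo 1 was higher than oligo 2 by 0.71 ± 0.18 on the log2 scale, or 1.64-fold (adjusted p = 0.0403), while against sirEGFP the changes were 0.28 with oligo 1 and -0.44 with oligo 2 (adjusted p = 0.593 and 0.301). The difference was not called without oligo 1 array 1 or 3, oligo 2 array 2 or 3, sirEGFP array 2 or any Mock array, with adjusted p-values of 0.0502 (without Mock array 1) to 0.178 (without oligo 2 array 2). Fitted without the 3 outer arrays, it was 0.78 (adjusted p = 0.122).

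The remaining Pol III subunit genes did not pass in any comparison. Polr3k, a small zinc-binding subunit, was at -0.44 with oligo 1 (adjusted p = 0.131) and -0.16 with oligo 2 (0.729), and it was called with oligo 1 when oligo 1 array 2 was left out (-0.58, adjusted p = 0.0241). Polr3d and Polr3e, which form a dimer in the enzyme, had changes of 0.14 or less in size against sirEGFP. Polr3e had a second probe set that disagreed in sign with oligo 1, at -0.17, against 0.14 for the brighter one, neither called.

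**Figure D2:**
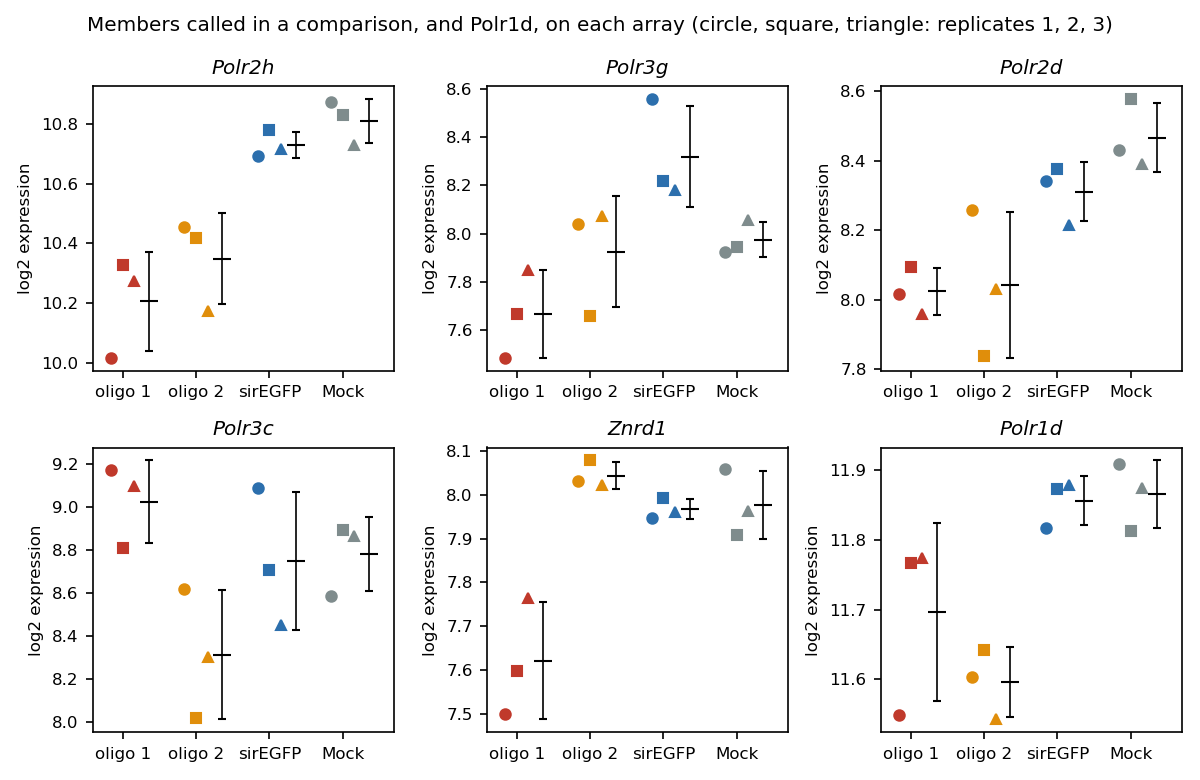
Log2 expression on each array of the 5 members called in at least 1 comparison and of Polr1d, by group, with the mean and SD (n = 3) beside the arrays and symbols for the replicate number. Polr2h and Polr1d have every oligo 1 and oligo 2 array below every sirEGFP and Mock array, and Polr3g has its oligo 2 arrays on both sides of those of Mock.

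Of the Pol I subunit genes none was called against sirEGFP or Mock with all arrays in the fit and no replicate block. Twistnb, which encodes a stalk subunit of Pol I, stood at 7.40, 8.03 and 8.12 with oligo 1, 8.17, 8.34 and 8.37 with oligo 2, 8.24, 8.51 and 8.65 with sirEGFP, and 8.22, 8.17 and 8.37 in Mock. Oligo 1 was below every other array, with array 1 far below the rest, and oligo 2 overlapped both controls. The change with oligo 1 was -0.62 ± 0.17 (adjusted p = 0.0778), and with oligo 2 it was -0.17 (0.766). Without oligo 1 array 2, or without sirEGFP array 1, Twistnb was called with oligo 1 (adjusted p = 0.0438 and 0.0474). It was also called with oligo 1 with the replicate number as a block in the limma fit (adjusted p = 0.0154).

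Znrd1, a small subunit that serves in cleavage of RNA within the enzyme, stood at 7.50, 7.60 and 7.76 with oligo 1, 8.03, 8.08 and 8.02 with oligo 2, 7.95, 7.99 and 7.96 with sirEGFP, and 8.06, 7.91 and 7.96 in Mock. All 3 oligo 1 arrays were below the other 9. Against oligo 2 it fell by 0.42 with oligo 1 (SE 0.11, adjusted p = 0.0414), and against sirEGFP the change was -0.35 ± 0.11 with oligo 1 (adjusted p = 0.125) and 0.08 with oligo 2 (0.86). The call between the oligos was lost when any single array other than sirEGFP array 1 was left out, with adjusted p-values of 0.0507 (without Mock array 2) to 0.138 (without oligo 1 array 1). When the 3 outer arrays were omitted, the difference was -0.28 (adjusted p = 0.598). Cd3eap and Polr1e, whose products form a dimer on Pol I, had changes of -0.19 to 0.05 against sirEGFP, and the median of the 6 genes was -0.12 with both oligos.

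Polr1d and Polr1c encode the assembly subunits that Pol I shares with Pol III. Polr1d stood at 11.55, 11.77 and 11.77 with oligo 1, 11.60, 11.64 and 11.54 with oligo 2, 11.82, 11.87 and 11.88 with sirEGFP, and 11.91, 11.81 and 11.87 in Mock. All 6 knockdown arrays were below all 6 controls, by a narrow margin for oligo 1 arrays 2 and 3. The change with both oligos was -0.21 ± 0.09 against sirEGFP (adjusted p = 0.333) and -0.22 against Mock (0.269), neither called. A second probe set for Polr1d overlapped between knockdown and control arrays, and its change against sirEGFP was -0.11 (adjusted p = 0.781). Polr1c stood at 9.78, 8.96 and 9.56 with oligo 1, 9.75, 9.18 and 9.20 with oligo 2, 9.72, 9.45 and 9.15 with sirEGFP, and 9.83, 9.91 and 9.57 in Mock. It varied as widely within oligo 1 as over all arrays but for Mock, and its change against sirEGFP with both oligos was -0.04 (adjusted p = 0.974).

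For Pol II, Polr2d, a stalk subunit, was called against Mock. Its log2 level was 8.02, 8.09 and 7.96 with oligo 1, 8.26, 7.84 and 8.03 with oligo 2, 8.34, 8.38 and 8.22 with sirEGFP, and 8.43, 8.58 and 8.39 in Mock. The knockdown arrays were below all Mock arrays, and so were the sirEGFP arrays, while oligo 2 array 1 lay above sirEGFP array 3. With sirEGFP against Mock, Polr2d was at -0.16 (adjusted p = 0.883). Polr2d fell by 0.43 against Mock with both oligos (SE 0.11, adjusted p = 0.0389), and its change against sirEGFP was -0.28 ± 0.11 (adjusted p = 0.246). The call was lost without oligo 1 array 1 or 3, oligo 2 array 2 or 3, sirEGFP array 2 or any Mock array, with adjusted p-values of 0.0515 (without oligo 1 array 1) to 0.191 (without Mock array 2). Omitting the 3 outer arrays put it -0.47 (adjusted p = 0.0763).

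Polr2a, the largest subunit of Pol II, stood at 10.09, 9.57 and 9.94 with oligo 1, 9.55, 9.58 and 9.54 with oligo 2, 9.72, 9.32 and 9.28 with sirEGFP, and 9.44, 9.39 and 9.64 in Mock. Oligo 1 arrays 1 and 3 were the highest of the 12, and array 2 lay among the controls. The change was 0.42 ± 0.15 with oligo 1 (adjusted p = 0.193) and 0.11 with oligo 2 (0.849). Without oligo 1 array 2 the change with oligo 1 was 0.57 and was called (adjusted p = 0.0404). The stalk partner of Polr2d, Polr2g, was at 0.08 with each oligo, and Polr2m, which encodes a protein that binds Pol II rather than a subunit, was at -0.21 with oligo 1 and 0.18 with oligo 2, none called. The oligos differed in Polr2m by -0.39 ± 0.11, which missed the threshold (adjusted p = 0.0776).

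The genes of the largest subunits could be set side by side as changes, since levels of different probe sets are not comparable. With both oligos against sirEGFP, Polr1a was at 0.15 (95% interval -0.16 to 0.47), Polr2a at 0.27 (-0.01 to 0.55) and Polr3a at -0.02 (-0.23 to 0.19). The second-largest subunits were at -0.18 for Polr1b (-0.49 to 0.13), -0.02 for Polr2b (-0.24 to 0.20) and -0.02 for Polr3b (-0.28 to 0.23). None of the 6 was called in any comparison with all arrays in the fit, and the intervals of the enzymes overlapped. Besides Polr2a with oligo 1, given above, Polr3b was called when 1 array was left out, with both oligos against Mock without Mock array 3 (0.46, adjusted p = 0.0454, where it was 0.29 with that array). By class, the median change with both oligos was -0.12 for Pol I, 0.06 for Pol II, -0.02 for Pol III and -0.08 for the common subunits. Leaving the 3 outer arrays aside, these medians were 0.03, 0.07, 0.07 and 0.11, so that the sign turned for all but Pol II.

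**Figure D3:**
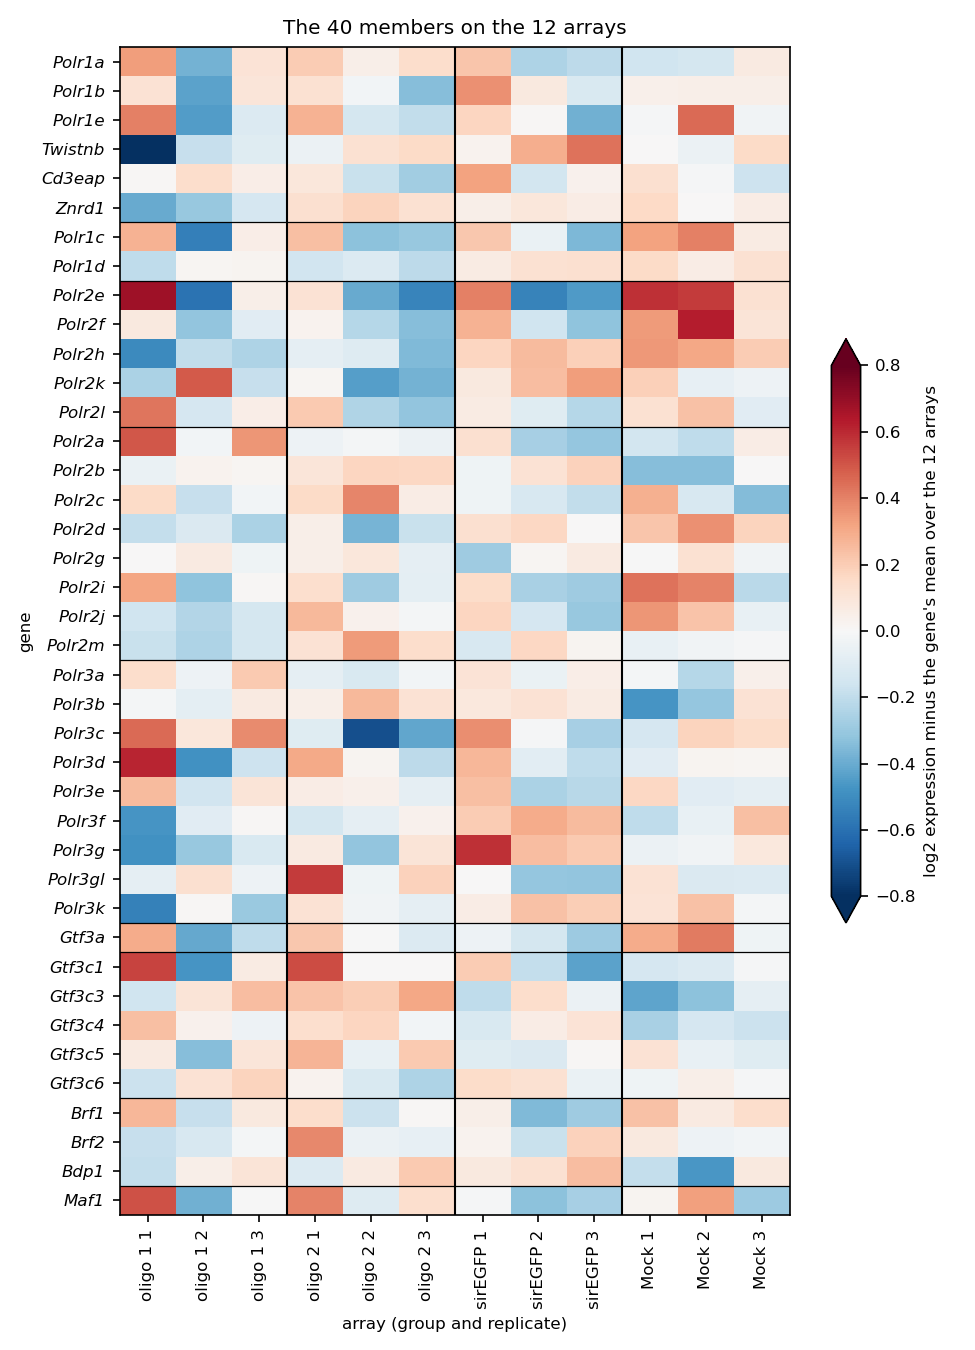
Log2 expression of the 40 members on the 12 arrays, each gene set relative to its own mean over the arrays, with colours from -0.8 to 0.8 and values beyond that at the end colours. Columns run from oligo 1 through oligo 2 and sirEGFP to Mock, rows from Pol I to Maf1. Oligo 1 arrays 1 and 2 show opposite colours for many genes of every class.

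None of the Pol III factor genes was called in any comparison with all arrays in the fit and no replicate block. Gtf3a, which encodes TFIIIA, the factor for the small ribosomal RNA gene read by Pol III, stood at 10.00, 9.29 and 9.50 with oligo 1, 9.92, 9.69 and 9.59 with oligo 2, 9.66, 9.55 and 9.41 with sirEGFP, and 10.00, 10.12 and 9.67 in Mock. Every sirEGFP array was below every Mock array, and the knockdown arrays spanned both. The change with both oligos was 0.12 against sirEGFP (adjusted p = 0.836) and -0.26 against Mock (0.481).

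TFIIIC, which recognises the internal promoters of tRNA genes, was measured through 5 genes. Gtf3c3 stood at 7.24, 7.51 and 7.64 with oligo 1, 7.63, 7.60 and 7.71 with oligo 2, 7.20, 7.54 and 7.35 with sirEGFP, and 6.98, 7.07 and 7.33 in Mock. The oligo 2 arrays were above all 6 controls, and oligo 1 overlapped both. Its change with both oligos was 0.19 ± 0.12 against sirEGFP (adjusted p = 0.563) and 0.43 ± 0.12 against Mock (0.0678), which became 0.52 and was called without the 3 outer arrays (0.0441). Gtf3c1, the largest TFIIIC subunit, stood at 7.76, 6.74 and 7.28 with oligo 1, 7.74, 7.22 and 7.22 with oligo 2, 7.42, 7.03 and 6.79 with sirEGFP, and 7.08, 7.11 and 7.20 in Mock. It held both the highest and the lowest of its 12 values within oligo 1, and its change with both oligos was 0.25 ± 0.19 (adjusted p = 0.681). Gtf3c4, Gtf3c5 and Gtf3c6 were between -0.11 and 0.11 with both oligos against sirEGFP.

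TFIIIB holds Pol III at its start sites and contains Bdp1 with either Brf1, used at tRNA genes, or Brf2, used at genes with upstream promoters such as the U6 RNA gene. Brf1 stood at 7.27, 6.83 and 7.09 with oligo 1, 7.15, 6.84 and 7.02 with oligo 2, 7.06, 6.66 and 6.72 with sirEGFP, and 7.24, 7.08 and 7.15 in Mock. The sirEGFP arrays were below all Mock arrays, and the knockdown arrays overlapped both controls. Brf1 was at 0.22 (95% interval -0.05 to 0.48) and Brf2 at -0.02 (-0.28 to 0.23) with both oligos against sirEGFP, neither called. Bdp1 stood at 8.90, 9.13 and 9.19 with oligo 1, 8.98, 9.16 and 9.29 with oligo 2, 9.16, 9.21 and 9.33 with sirEGFP, and 8.89, 8.62 and 9.17 in Mock. The groups overlapped, and its change with both oligos was -0.13 against sirEGFP and 0.21 against Mock (adjusted p = 0.778 and 0.504).

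Maf1, the repressor of Pol III, stood at 7.61, 6.71 and 7.09 with oligo 1, 7.49, 6.99 and 7.23 with oligo 2, 7.09, 6.77 and 6.83 with sirEGFP, and 7.12, 7.43 and 6.80 in Mock. Oligo 1 held the highest and the lowest value. The change with both oligos was 0.29 (95% interval -0.10 to 0.68, adjusted p = 0.565) against sirEGFP and 0.07 against Mock.

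For many of the members, the arrays of 1 group differed along the within-group axis. The within-group axis held 41.5% of the within-group variance over all genes. Of the 40 members, 15 (37.5%) correlated with it over the 12 arrays at Pearson's r of 0.8 or more, compared with 11.1% of all genes, and 9 (22.5%) at -0.5 or less, compared with 22.7%. These correlations are descriptions over arrays that also defined the axis. The 15 came from every class, among them Polr2e (0.96), Gtf3c1 (0.95), Polr1c (0.95), Polr1e (0.90), Polr3d (0.90), Brf1 (0.89), Maf1 (0.88), Gtf3a (0.86) and Polr2i (0.85).

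The range that this gave was wide. Polr2e stood at 7.97, 6.70 and 7.34 with oligo 1, which covers its whole range of 1.27 log2 units over the 12 arrays, and its group means, at 7.34 with oligo 1, 7.02 with oligo 2, 7.10 with sirEGFP and 7.71 in Mock, lay within that range. The subunits with the opposite sign included Twistnb (r = -0.83), Polr1d (-0.69) and Bdp1 (-0.61), so subunits of 1 enzyme did not move together along the axis. Polr2h (-0.38), Polr3g (0.24), Polr2d (0.31) and Znrd1 (-0.30), which were called, followed it weakly, and Polr3c (0.80) followed it closely. The spread within groups both defined the axis and enters the test behind a call, so these are not separate observations. The median SD within groups was 0.183 for members and 0.174 for all genes. What the axis stands for was not tested.

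**Figure D4:**
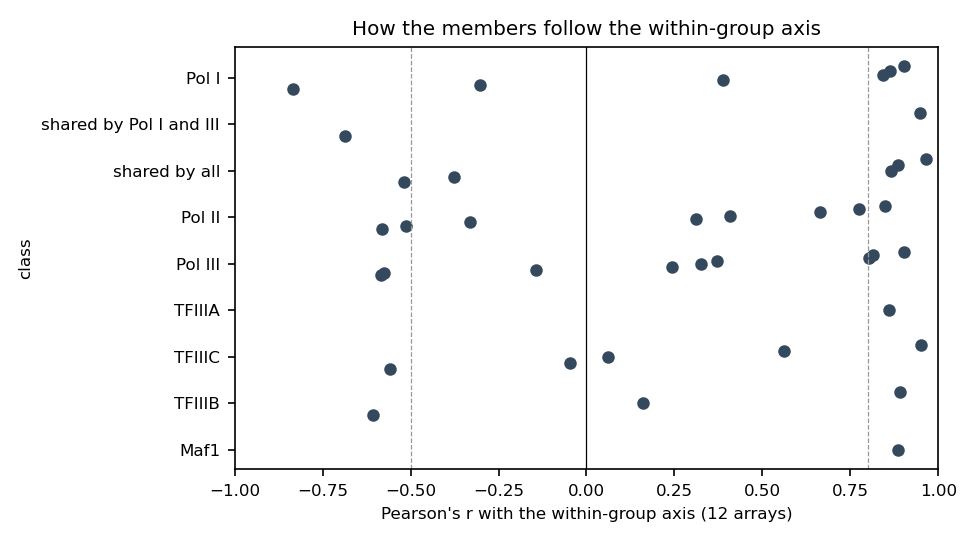
Pearson's r of each member with the within-group axis, over the 12 arrays (x axis), by class (y axis, where the height within a class only keeps the points apart). Dashed lines mark 0.8 and -0.5, and 15 of the 40 members lie at or beyond 0.8.

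The genes that work beside the polymerases were described through 5 lists, in which 0 genes were called with both oligos against sirEGFP, where 1.93% of all genes were. At an unadjusted p under 0.05 there were 2 of 9 Pol I initiation and termination factors, 1 of 10 factors linked to Pol III and small nuclear RNA genes, 5 of 29 general factors of Pol II, 1 of 12 polymerase assembly and import factors, and 0 of 6 factors of mitochondrial transcription, where 13.2% of all genes were. The medians of these lists were -0.16, -0.02, -0.04, 0.04 and -0.03 log2 units, and that of all genes was 0.0077. Ubtf, the target of the siRNAs, had the smallest p of the first list and is among the 2 counted there. Tbp belongs to the lists of Pol I, Pol III and Pol II factors, so these lists are not separate. Rrn3, which links Pol I to its promoter, was at -0.26 (adjusted p = 0.344).

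In the second list Larp7, which binds and stabilises a Pol III transcript that restrains Pol II elongation, differed between the siRNAs. Its log2 level was 8.31, 8.82 and 8.58 with oligo 1, 9.72, 9.88 and 9.67 with oligo 2, 9.66, 9.60 and 9.49 with sirEGFP, and 9.35, 9.50 and 9.56 in Mock. The oligo 1 arrays were below the other 9, and the oligo 2 arrays were above them all. Larp7 fell by 1.01 with oligo 1 against sirEGFP (adjusted p = 0.00147) and by 1.19 against oligo 2 (0.000362), and its change with oligo 2 was 0.17 (0.679). With both oligos together it was at -0.42 (adjusted p = 0.0881). Without the 3 outer arrays Larp7 was at -0.97 with oligo 1 against sirEGFP (adjusted p = 0.0209) and at -1.18 against oligo 2 (0.0051).

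Of the Pol II general factors, Taf13, a subunit of TFIID, had the smallest p with both oligos against sirEGFP. It stood at 9.22, 10.15 and 9.73 with oligo 1, 9.40, 9.24 and 9.41 with oligo 2, 9.95, 10.30 and 10.03 with sirEGFP, and 9.98, 10.04 and 10.15 in Mock. The oligo 2 arrays were below all controls, and oligo 1 array 2 lay among them. Taf13 fell by 0.74 with oligo 2 against sirEGFP (adjusted p = 0.0464), its change with oligo 1 was -0.39 (0.369), and that with both was -0.57 ± 0.16 (0.0886). The oligo 2 call was lost when any single array other than oligo 1 array 1 or 2 was left out, with adjusted p-values of 0.0502 (without sirEGFP array 1) to 0.21 (without sirEGFP array 2), and without the 3 outer arrays the change was -0.81 (0.00366). With both oligos against sirEGFP, the smallest p among the assembly factors belonged to Gpn2, a GTPase of polymerase import, at 0.48 (adjusted p = 0.246), and among the mitochondrial factors to Tfb1m, at -0.25 (0.453).

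Between the oligos, 2 more genes of these lists were called. Gtf2e1, which encodes the large subunit of TFIIE, stood at 5.96, 6.24 and 5.94 with oligo 1, 6.86, 6.55 and 6.93 with oligo 2, 6.61, 6.60 and 6.43 with sirEGFP, and 6.41, 6.41 and 6.63 in Mock. The oligo 1 arrays were below the other 9, and Gtf2e1 fell by 0.74 with oligo 1 against oligo 2 (adjusted p = 0.0062, and -0.84 with 0.0483 without the 3 outer arrays). Pdrg1, of the assembly list, stood at 8.38, 7.75 and 8.15 with oligo 1 and at 7.69, 7.14 and 7.05 with oligo 2. It was higher with oligo 1 by 0.80 (adjusted p = 0.0271), a call kept in 12 of 19 alternatives and lost with centring, with only the arrays of the comparison, without oligo 1 array 1 or 3, without oligo 2 array 2 or 3, and without the 3 outer arrays (0.86, adjusted p = 0.0843).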

How the data were processed

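Expression was measured on 12 Affymetrix arrays, 3 for each of 4 groups assigned from the sample titles. For each of 35512 probe sets the authors deposited 1 log2 value per array, a scale read from the values. Limma is named in the submitters' processing notes without a version. Summary, background and normalization steps were not given in the sources used here, so signal over background could not be judged. The arrays were made from 100 ng of total RNA, per the labels' protocols.

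Of the probe sets, 21789 carried 1 gene symbol, 1621 several and 12102 none, by the platform annotation, and 21698 matched RefSeq names (GRCm38.p6) by Entrez identifier. Probe sets with several symbols were not named, and the brightest probe set stood for a gene. No member fell below the 0.25 quantile of mean level over all genes.

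Limma 3.58.1 (R 4.3.3, two-sided, lmFit and eBayes) was run on all 19938 genes with a mean per group, leaving 8 residual degrees of freedom. Called means an adjusted p under 0.05, by Benjamini-Hochberg over all of them. The code was tested on simulated data. The members and lists were chosen with earlier results of these data known. Array values are given for members called and for the 2 of each class with the smallest p with both oligos against sirEGFP, and homologous subunits are set side by side. From each list the members called in that comparison, or else the one with the smallest p, are named, and Rrn3, Polr3gl, Polr2e, Polr2m, Gtf2e1, Pdrg1 and the single markers were described beyond this after their values were seen.

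The groups share replicate numbers that the labels do not explain. Deviations from the group means correlated at 0.182 or more for every same-numbered pair of oligo 2 and sirEGFP, and at 0.115 or more for oligo 1 and oligo 2. Pairs of unlike number were not looked at, so whether the numbers mark pairs was not tested. For the other groups at least 1 pair was under 0.1 (down to -0.237). Alternatives were quantile normalization, centring, a filter on dim genes, the mean of probe sets, only the arrays of a comparison, the replicate block, and leaving out arrays.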

Additional observations from a re-analysis of the deposited data

Results flagged for a closer look

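The effects of the siRNAs, each against sirEGFP, differed for Polr3c and for Znrd1, by limma's test of oligo 1 against oligo 2 over all genes. For Polr3c, a Pol III subunit, the change with oligo 1 minus that with oligo 2 was 0.71 (adjusted p = 0.0403), and all 3 oligo 1 arrays were above all 3 oligo 2 arrays. For Znrd1, a Pol I subunit, it was -0.42 (adjusted p = 0.0414), and all 3 oligo 1 arrays were below all 3 oligo 2 arrays. Over all genes 732 were called in this comparison (3.67%), beside 2 of the 40 members. The adjusted p over the alternatives lay between 0.0217 and 0.178 for Polr3c and between 0.0181 and 0.598 for Znrd1. Why the siRNAs differ was not tested.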

How the results depend on the processing

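Of the 8 calls of single members, none turned its sign under any of 19 alternatives, 12 of which left out 1 array each. The Polr2h call against Mock was kept in 17 of the 19, that of Polr3g with oligo 1 in 13, that of Polr2h with oligo 1 in 11, those of Polr3c and Polr2d in 8, that of Znrd1 in 6, and those of Polr2h and Polr3g with both oligos against sirEGFP in 5 each. Leaving out 1 array at a time, the count of members called lay between 0 and 5 with oligo 1, 0 and 0 with oligo 2, 0 and 2 with both oligos against sirEGFP, 0 and 2 against Mock, and 0 and 2 between the oligos. The count of all genes lay between 155 and 863, 198 and 627, 108 and 722, 203 and 865, and 328 and 833 in the same order, and between 0 and 1 for sirEGFP against Mock. The 5 members called with oligo 1 without its array 2 were Polr2a, Polr2h, Polr3g, Polr3k and Twistnb. Fitting only the arrays of a comparison gave 0 members and 101 genes with oligo 1, 0 and 236 with both oligos against sirEGFP, 1 member against Mock, and 0 members and 380 genes between the oligos, with fewer arrays to estimate the spread. The mean of a gene's probe sets left 1 member with oligo 1 and 1 with both oligos (Polr3g). Centring on array medians left 1 (Polr2h) with both oligos against sirEGFP and 1 against Mock. Between the oligos, centring ended the call of Polr3c (adjusted p = 0.0907) and added that of Polr2m (0.0361). Centring also gave 192 higher and 637 lower genes between the oligos, where the values as deposited gave 273 and 459. Omitting the 3 outer arrays gave 0 members and 255 genes with oligo 1, 1049 genes with oligo 2, 0 members and 793 genes with both oligos, and 0 members and 211 genes between the oligos. The cause of these shifts was not tested.

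With the replicate block, genes called numbered 878 with oligo 1 (3 members, Twistnb added), 773 with oligo 2, 789 with both oligos against sirEGFP, 1070 with both against Mock (4 members, Gtf3c3 and Polr2f added) and 3 for sirEGFP against Mock. The block changed no other call of a member. Same-numbered arrays correlated over 0.1 for every number in only some pairs of groups, and whether the numbers mark pairs was not tested. The arrays carry no stated background, and how far this limits the members' changes was not tested.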
